A study of Rattus norvegicus with 6 samples.

Results

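Integrins and laminins are the receptors and ligands that tie vessel wall cells to their basement membranes. The table of expression values held 38 rows whose symbol began with Itga or Itgb (leaving out Itgbl1 and the Itgb1bp genes) or was Lama, Lamb or Lamc with 1 digit, out of 24005 rows in all. Of these 38 rows, 37 encode subunits, namely 18 integrin alpha, 8 integrin beta, 5 laminin alpha, 3 laminin beta and 3 laminin gamma chains. The remaining row, Itgb3bp, encodes a protein that binds the integrin beta-3 tail and is no subunit, so it is left out of the counts. It stood at 3.87, 4.01 and 3.31 FPKM with exosomes and at 3.96, 4.89 and 3.98 FPKM with saline.

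An integrin is a pair of an alpha and a beta chain, and the pair decides the ligand. In the arterial media, alpha-8, alpha-7, alpha-1 and alpha-9 pair with beta-1, and alpha-v pairs with beta-1, beta-3, beta-5 or beta-8. Alpha-v also pairs with beta-6, in epithelium. A laminin is a cross of an alpha, a beta and a gamma chain, with the alpha chain carrying the main binding site for integrins, and endothelial and smooth muscle basement membranes are rich in laminins with the alpha-4 and alpha-5 chains.

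The aortas were those of rats with chronic kidney disease, made by a staged removal of kidney tissue (5/6 nephrectomy), and every rat ate a diet with 1.2% phosphorus to hasten calcification. The exosome group (3 libraries) received engineered exosomes, labelled ANCR/E7-EXO, into the tail vein at 10 mg/kg at intervals of 5 days. The saline group (3 libraries), which had the same operations and diet, received an equal volume of saline over 13 weeks. No healthy rats and no unmodified exosomes were compared here, and the labels give neither age nor strain, nor whether each library came from its own rat. RNA from whole vessel wall was measured, so fewer cells of a type and less RNA per cell cannot be told apart.

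FPKM divides a gene's reads by its length and by the library total, so levels of different genes can be set side by side. Steps in the values implied library totals from 28063355 to 44561082 reads or read pairs. The tissue carried the smooth muscle markers at a summed 15230 to 21570 FPKM with exosomes and 13700 to 21530 FPKM with saline. Endothelial markers (9 genes) summed to 156.9 to 230.2 FPKM with exosomes and 104.8 to 151.3 FPKM with saline, and macrophage markers (8 genes) to 118.2 to 142.6 FPKM with exosomes and 83.4 to 97.5 FPKM with saline, with no overlap for either list. Adipocyte markers (6 genes) reached 1099 FPKM in saline 2, against 318.1 to 627.3 FPKM in the other libraries. Mesothelial markers (4 genes) reached 22.4 FPKM in saline 1, 9.08 FPKM in saline 3 and 4.23 FPKM in exosome 3. The other libraries held 0.217 to 0.381 FPKM.

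The aorta used a small part of both families at high level. Itga8, the partner of beta-1 that binds nephronectin and fibronectin and is abundant in vascular smooth muscle, was the highest subunit. It stood at 870.6, 778.9 and 698.5 FPKM with exosomes and 887.4, 821.5 and 670.2 FPKM with saline. Itgb1, the shared beta chain, stood at 725.1, 576.6 and 592.6 FPKM with exosomes and 732.8, 566.7 and 479.9 FPKM with saline. The groups overlapped for both genes.

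Itga8 made up 66.6% ± 4.10 of the summed FPKM of the alpha chains with exosomes and 69.8% ± 3.16 with saline (SD, n = 3 each). Itgb1 made up 81.3% ± 2.42 of the beta chains with exosomes and 78.1% ± 4.49 with saline. Next among alpha chains came Itga9, a receptor for tenascin-C and related ligands, at an overall mean of 103.9 FPKM, then Itgav at 64.4, Itga5 at 58.2, Itga7 at 52.0, Itga1 at 39.1 and Itga11, a collagen receptor of fibroblasts, at 32.6 FPKM. Neighbours in this order from Itgav to Itga11 overlapped in their values over the 6 libraries, whereas Itga8, Itga9 and Itgav did not overlap each other. Itga3 (4.06 FPKM) and Itga6 (3.78 FPKM), the laminin receptors best known from epithelium and endothelium, lay far below Itga11. Among beta chains Itgb5 followed at 105.3 FPKM, then Itgb3 at 22.1, Itgb8 at 15.2 and Itgb4 at 7.92 FPKM. Itgb3 overlapped with Itgb8, and Itgb8 with Itgb4.

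Laminin transcripts were led by Lamb2 at an overall mean of 200.5 FPKM, Lamc1 at 96.4, Lama4 at 89.6 and Lamb1 at 59.7 FPKM. Lama5 (17.1 FPKM), Lama2 (15.8 FPKM) and Lamc3 (8.99 FPKM) were lower. Lamc1, Lama4 and Lamb1 overlapped in their values, as did Lama5 and Lama2. Of the chains of epithelial laminin, Lama3 stood at 0.328 to 0.497 FPKM over the 6 libraries and Lamb3 at 0.0278 to 0.990 FPKM. Lamb3 was carried by single libraries, with 4, 9 and 21 reads in exosome 1, 2 and 3 and 47, 123 and 8 reads in saline 1, 2 and 3. Lama1, the chain of early embryonic laminin, had 0 to 5 reads per library.

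Integrins of leukocytes were near the floor. Itgb2, the shared beta chain of leukocytes, stood at 1.68, 1.34 and 2.68 FPKM with exosomes and 1.59, 1.79 and 1.39 FPKM with saline. Its partners Itgam and Itgal lay between 0.901 and 2.15 FPKM in every library, and Itgax, Itga4, Itgb7 and Itgae were under 1 FPKM in every library. Itgad had 1 to 12 reads per library and Itgb6, the alpha-v partner of epithelium, 1 to 5. The macrophage markers did not overlap between the groups as a sum, while Itgb2 and Itgam did, with limma adjusted p = 0.728 and adjusted p = 0.716 for these 2 integrins. Itga2b, the alpha chain of platelets, stood at 0.735, 0.908 and 0.949 FPKM with exosomes and 0.943, 0.487 and 2.11 FPKM with saline. Summed platelet markers were also highest in saline 3, at 39.2 FPKM against 15.2 to 26.5 FPKM in the other libraries. Most of that sum was a single gene, since 6 of the 7 platelet genes were under 1 FPKM in every library and Gp1bb was at 0.

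**Figure D1:**
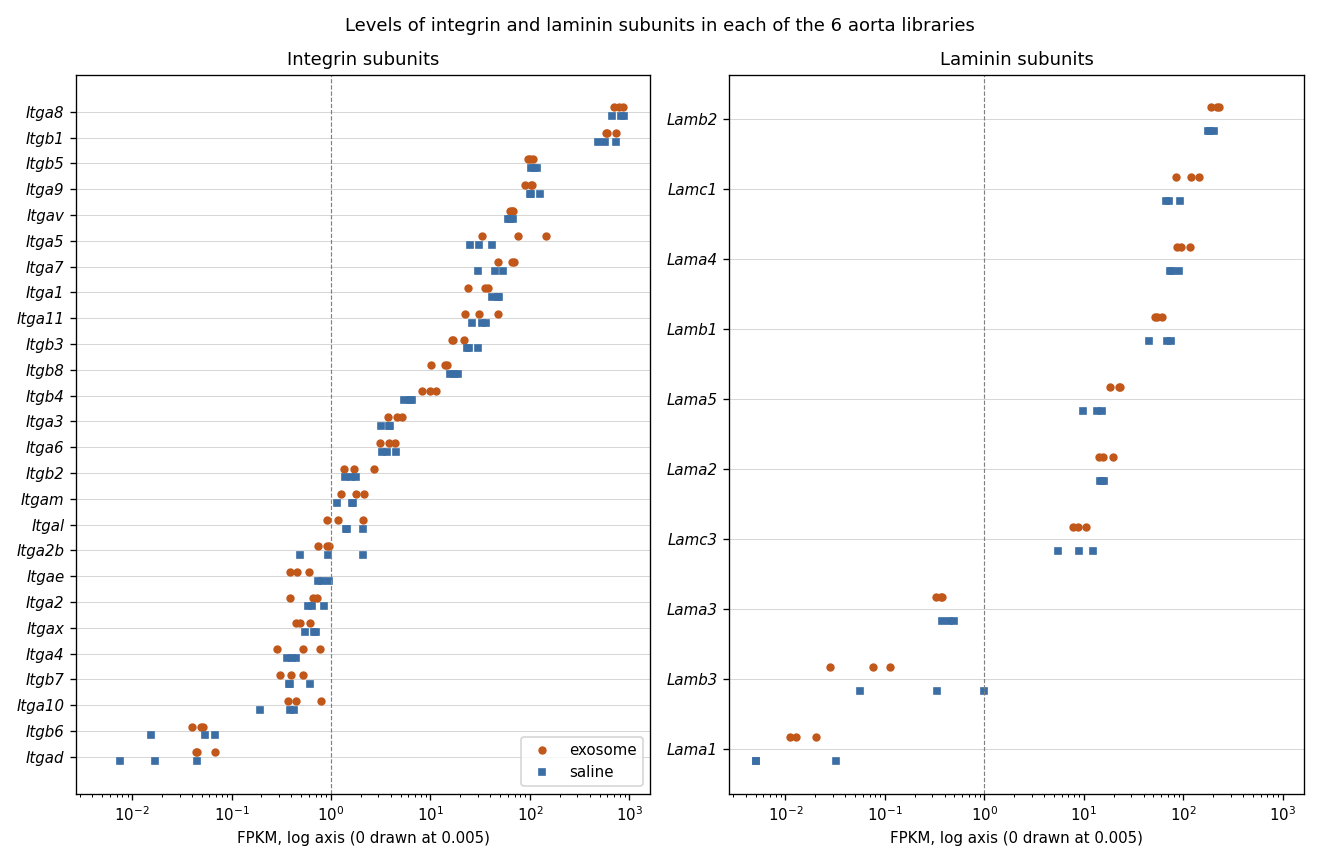
FPKM of the 26 integrin and 10 laminin subunits drawn, in the 3 exosome libraries (circles) and the 3 saline libraries (squares), on a log axis, with genes in order of their overall mean a dashed line at 1 FPKM and libraries at 0 drawn at the left edge. Itga8 and Itgb1 lie far above the other integrins, Lamb2 leads the laminins, and 11 subunits have an overall mean under 1 FPKM.

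The comparison asked which subunits differed between exosome-treated and saline-treated aorta. It used limma on log2(FPKM + 1) over the 11742 genes with a mean of at least 1 FPKM, among them 26 of the 37 subunits (18 integrin and 8 laminin chains). The other 11 lay below that level. No subunit passed a Benjamini-Hochberg adjusted p of 0.05, a threshold that 0.00852% of all genes tested passed. The smallest adjusted p of a subunit was 0.255.

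At an unadjusted p under 0.05 limma gave 7 of the 26 tested subunits (26.9%), 4 higher and 3 lower, where 16.0% of all genes tested reached it (6.75% higher and 9.24% lower). The count was 4 without exosome 1, 4 without exosome 3 and 2 without saline 3. Groups did not overlap for 5 of the 26 (19.2%), against 21.1% of all genes tested (9.40% higher and 11.7% lower). That count was 12 without exosome 2, 10 without saline 1 and 8 without saline 2. Fewer libraries make a gap likelier for any gene. The shares of all genes with a library left out are not given, so these counts have no base to be read against. With all 6 libraries the share of subunits at that p was above that of all genes. Their share with groups apart was slightly below it, and what follows describes single genes. The median log2 difference was 0.02 over the tested integrins and 0.18 over the tested laminins, where all genes tested had -0.073. Of the laminins 7 of 8 were higher, and of the integrins 10 of 18, against 39.3% of all genes tested.

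Lama5, the laminin alpha chain that marks mature endothelial basement membrane and hinders leukocyte passage, was higher with groups apart. It stood at 22.5, 18.3 and 23.1 FPKM in exosome 1, 2 and 3 and at 15.1, 13.4 and 9.88 FPKM in saline 1, 2 and 3. Every exosome library lay above every saline library. The means were 21.3 ± 2.59 FPKM with exosomes and 12.8 ± 2.65 FPKM with saline (SD, n = 3 each), a ratio of 1.67. The log2 difference was 0.71 with a standard error of 0.17 (limma adjusted p = 0.255), and it lay between 0.55 and 0.83 with any 1 library left out.

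Itgb4, which pairs with alpha-6 as a laminin receptor and is the beta chain of hemidesmosomes, was the other higher subunit whose groups stood apart. It had 8.13, 11.4 and 9.90 FPKM with exosomes and 6.23, 6.57 and 5.36 FPKM with saline, so that the highest value was in exosome 2. Its log2 difference was 0.61 with a standard error of 0.15 (limma adjusted p = 0.255). Itga6, its only alpha partner, stood at 3.14, 3.86 and 4.40 FPKM with exosomes and 3.62, 4.47 and 3.23 FPKM with saline, a log2 difference of 0.01 with a standard error of 0.16 (limma adjusted p = 0.983).

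The markers of endothelium were also higher with exosomes for 7 of 9 genes, against 39.3% of all genes tested. Groups stood apart for 4 of the 9, all higher, against 21.1% of all genes tested (9.40% higher). The summed endothelial level was 156.9, 230.2 and 161.3 FPKM in exosome 1, 2 and 3 and 120.5, 151.3 and 104.8 FPKM in saline 1, 2 and 3. Its highest library, exosome 2, was the highest for Itgb4 but the lowest exosome library for Lama5, and its highest saline library, saline 2, was the highest saline library for Itgb4 but not for Lama5. Within each group the libraries had the same order for Itgb4 as for this sum, and another order for Lama5. An order of 3 libraries per group carries no test. The part of the endothelial markers in either result was not tested. Epithelium and Schwann cells are other known sources of Itgb4. Schwann cell markers (6 genes) summed to 13.7 to 28.8 FPKM with exosomes and 14.6 to 44.6 FPKM with saline, groups that overlapped. Epithelial markers summed to 3.94 to 16.1 FPKM with exosomes and 4.79 to 9.69 FPKM with saline. Of that list Krt5 was at 0 in every library, and 4 of its 5 genes were under 1 FPKM in every library.

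Lamc1, the gamma chain of most laminins of the wall, stood at 120.3, 84.5 and 142.3 FPKM with exosomes and 92.7, 72.4 and 66.4 FPKM with saline. The groups overlapped, since exosome 2 lay below saline 1. The log2 difference was 0.56 with a standard error of 0.21 (limma adjusted p = 0.291). Lama4, the main alpha chain, stood at 117.0, 87.0 and 94.4 FPKM with exosomes and 89.3, 72.7 and 77.1 FPKM with saline. Only exosome 2 lay within the saline range, and the log2 difference of 0.31 (standard error 0.14, limma adjusted p = 0.330) was 0.19 without exosome 1. Lamb2 stood at 216.2, 229.4 and 190.6 FPKM with exosomes and 178.0, 201.8 and 187.0 FPKM with saline (log2 difference 0.16, limma adjusted p = 0.478). Lamb1 stood at 54.1, 61.3 and 52.3 FPKM with exosomes and 75.9, 45.6 and 68.8 FPKM with saline. It was the only tested laminin with a lower mean with exosomes (log2 difference -0.15, limma adjusted p = 0.695), and this difference was 0.00 without saline 1 and -0.37 without saline 2.

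Itga5, the alpha chain of the main fibronectin receptor, had the largest difference of the tested subunits and the widest spread. It stood at 76.2, 32.6 and 143.6 FPKM in exosome 1, 2 and 3 and at 41.2, 24.8 and 30.6 FPKM in saline 1, 2 and 3. Exosome 1 and 3 lay above all saline libraries and exosome 2 lay among them. The log2 difference was 1.15 with a standard error of 0.48 (limma adjusted p = 0.309). It was 0.65 without exosome 3. The chaperone gene Hsph1, chosen after its values were seen, was high in the same libraries, at 217.9, 41.9 and 512.4 FPKM with exosomes and 38.4, 35.5 and 83.6 FPKM with saline. Whether the heat shock level has a part in the Itga5 values was not tested. Fn1, its ligand fibronectin, was also named after its values were seen. It stood at 420.4, 652.4 and 325.2 FPKM with exosomes and 330.1, 365.4 and 272.2 FPKM with saline, highest in exosome 2, where Itga5 was lowest of its group.

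Itga7, the laminin receptor alpha chain of muscle, stood at 66.4, 48.2 and 68.7 FPKM with exosomes and 53.9, 44.4 and 30.3 FPKM with saline. Exosome 2 lay below saline 1, and the log2 difference was 0.52 with a standard error of 0.23 (limma adjusted p = 0.314). Without saline 3 it was 0.30. Itga3, another laminin receptor chain, had a log2 difference of 0.24 (limma adjusted p = 0.445).

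Among the lower subunits, Itga1 encodes the alpha chain of a receptor for basement membrane collagen and is abundant in smooth muscle. It stood at 38.0, 35.7 and 23.9 FPKM with exosomes and 41.1, 48.6 and 47.4 FPKM with saline. All exosome libraries lay below all saline libraries, by a small gap between exosome 1 and saline 1. The log2 difference was -0.50 with a standard error of 0.18 (limma adjusted p = 0.287), and it was -0.30 without exosome 3.

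Itgb3, the beta chain of the vitronectin and osteopontin receptor of smooth muscle and, with Itga2b, of platelets, was lower with groups apart. It stood at 16.3, 21.6 and 17.0 FPKM with exosomes and 24.1, 23.2 and 30.4 FPKM with saline. The log2 difference was -0.48 with a standard error of 0.15 (limma adjusted p = 0.270). Itgb8, which with alpha-v binds latent TGF-beta and releases its active form, stood at 14.5, 14.0 and 10.1 FPKM with exosomes and 17.4, 15.9 and 19.1 FPKM with saline. Again no exosome library reached the saline range. The log2 difference was -0.42 with a standard error of 0.16 (limma adjusted p = 0.289), and -0.27 without exosome 3.

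The common partner of beta-3 and beta-8, Itgav, differed little, at 63.2, 66.9 and 65.2 FPKM with exosomes and 67.8, 63.4 and 59.9 FPKM with saline (log2 difference 0.03, standard error 0.09, limma adjusted p = 0.874). Itgb5, its most abundant partner after Itgb1, stood at 100.3, 106.2 and 94.4 FPKM with exosomes and 110.0, 102.2 and 118.5 FPKM with saline (log2 difference -0.13, limma adjusted p = 0.520). Itga9 stood at 105.7, 102.1 and 88.5 FPKM with exosomes and 102.9, 99.0 and 125.5 FPKM with saline (log2 difference -0.14, limma adjusted p = 0.587). Itga8 had a log2 difference of -0.01 with a standard error of 0.16 (limma adjusted p = 0.968), positive after rescaling to the median of ratios or to equal sums, and Itgb1 one of 0.10 with a standard error of 0.19 (limma adjusted p = 0.782).

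**Figure D2:**
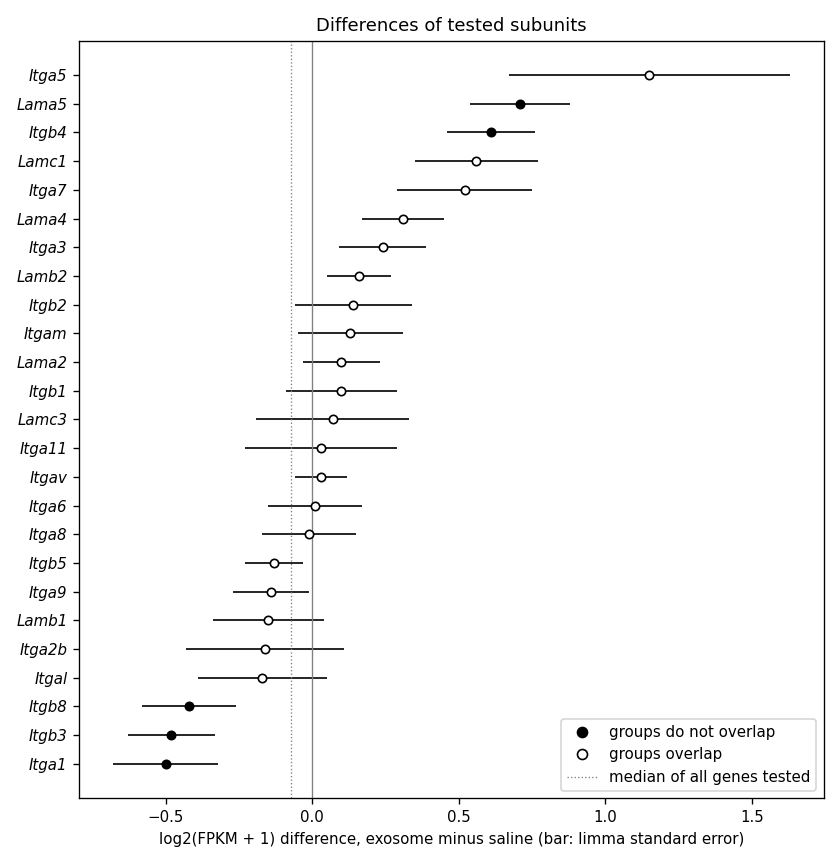
Difference in log2(FPKM + 1), exosome minus saline, of 25 of the 26 tested subunits, with limma's standard error as the bar, a solid line at 0 and a dotted line at the median of all genes tested, -0.073. Filled points mark the 5 subunits whose groups do not overlap, with Lama5 and Itgb4 higher and Itgb8, Itgb3 and Itga1 lower, and Itga5 has the longest bar.

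**Figure D3:**
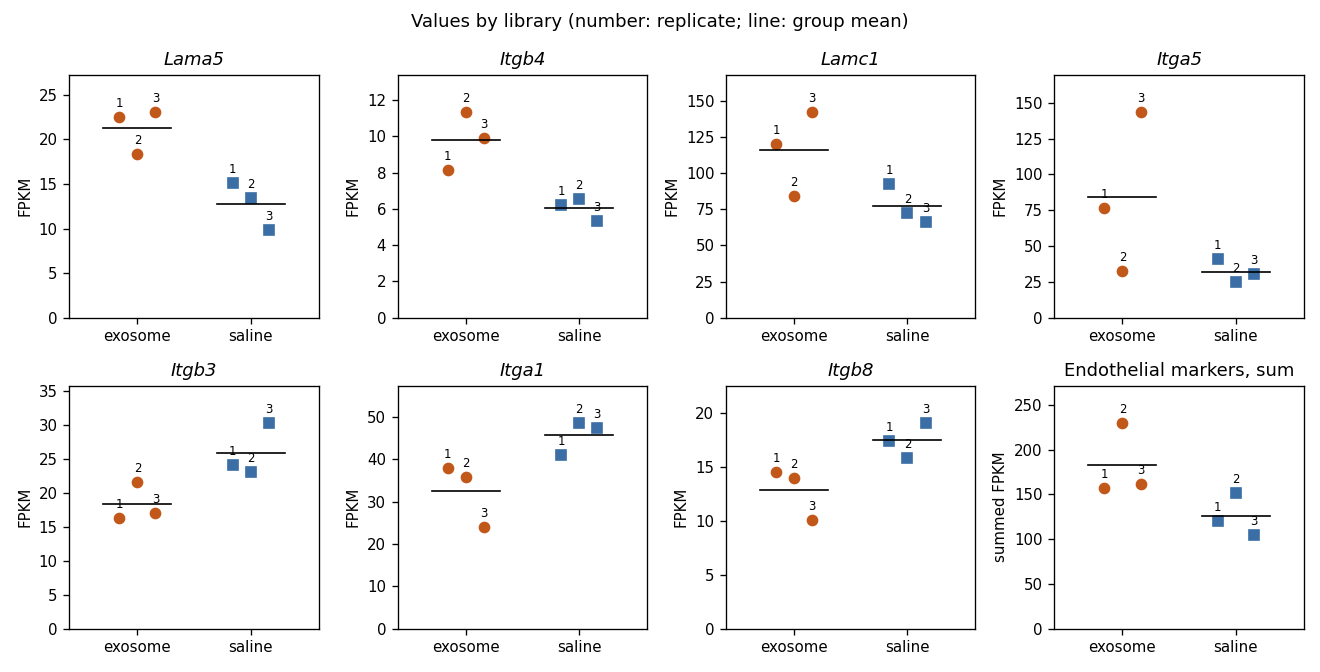
FPKM by library for the 7 subunits with an unadjusted p under 0.05 and, in the last panel, the summed FPKM of 9 endothelial markers, with the exosome libraries left of the saline libraries, the replicate number above each point and the group mean as a line. Lama5, Itgb4, Itgb3, Itga1 and Itgb8 show no overlap between the groups, while exosome 2 falls among or near the saline libraries for Lamc1 and Itga5.

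Below the level needed for the test, Itgae, the alpha chain that pairs with beta-7 on intraepithelial T cells, was the only subunit of the 11 whose groups stood apart, and it is named for that reason. Among all genes tested, groups stood apart for 21.1% (11.7% lower). No such share is given for genes below that level, so this count has no base to be read against. It stood at 0.387, 0.601 and 0.459 FPKM with exosomes, from 52 to 80 reads, and at 0.945, 0.733 and 0.819 FPKM with saline, from 85 to 124 reads. When all genes above 0 entered the fit, Itgae had a log2 difference of -0.31 with a standard error of 0.09 (limma adjusted p = 0.364). Its partner Itgb7 overlapped between the groups, at 0.307 to 0.521 FPKM with exosomes and 0.380 to 0.612 FPKM with saline.

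The make-up of the laminins was read from the share of each chain in the summed FPKM of its class. Lama4 held 72.1% ± 3.60 of the alpha chains with exosomes and 73.7% ± 1.57 with saline (SD, n = 3 each). Lama5 held 14.6%, 15.1% and 16.8% in exosome 1, 2 and 3 and 12.6%, 13.3% and 9.56% in saline 1, 2 and 3, with no overlap. The ratio of Lama4 to Lama5 was accordingly 5.20, 4.74 and 4.09 with exosomes and 5.93, 5.42 and 7.81 with saline. Lama2, the chain of muscle and nerve basement membrane, held 9.29%, 12.9% and 14.2% with exosomes and 12.6%, 14.4% and 15.3% with saline.

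Lamb2 held 79.1% ± 0.789 of the beta chains with exosomes and 74.8% ± 5.80 with saline. The ratio of Lamb2 to Lamb1 was 3.99, 3.74 and 3.64 with exosomes and 2.35, 4.43 and 2.72 with saline, so the saline libraries spread on both sides of the exosome libraries. Lamc1 held 92.1%, 91.0% and 91.4% of the gamma chains with exosomes and 87.1%, 91.7% and 87.0% with saline. The summed alpha chains were 154.3, 121.3 and 137.4 FPKM with exosomes and 119.9, 101.1 and 103.3 FPKM with saline, groups that did not overlap, whereas the summed beta chains did.

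Among the beta chains that pair with alpha-v, leaving out the shared Itgb1, Itgb5 held 76.5%, 74.9% and 77.7% with exosomes and 72.6%, 72.4% and 70.5% with saline. Itgb3 held 12.5%, 15.2% and 14.0% with exosomes and 15.9%, 16.4% and 18.1% with saline, and Itgb8 held 11.1%, 9.86% and 8.32% with exosomes and 11.5%, 11.2% and 11.4% with saline. The groups stood apart for the shares of these 3 genes, which with Itgb6 sum to the whole and so are not independent of each other. Taken over all integrin beta chains, only the Itgb8 share of these 3 stayed apart, at 1.68%, 1.91% and 1.39% with exosomes and 1.95%, 2.21% and 2.92% with saline. The Itgb3 and Itgb5 shares then overlapped, Itgb3 at 1.89%, 2.96% and 2.33% with exosomes and 2.70%, 3.23% and 4.64% with saline. These shares are descriptions of 6 libraries and carry no test.

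**Figure D4:**
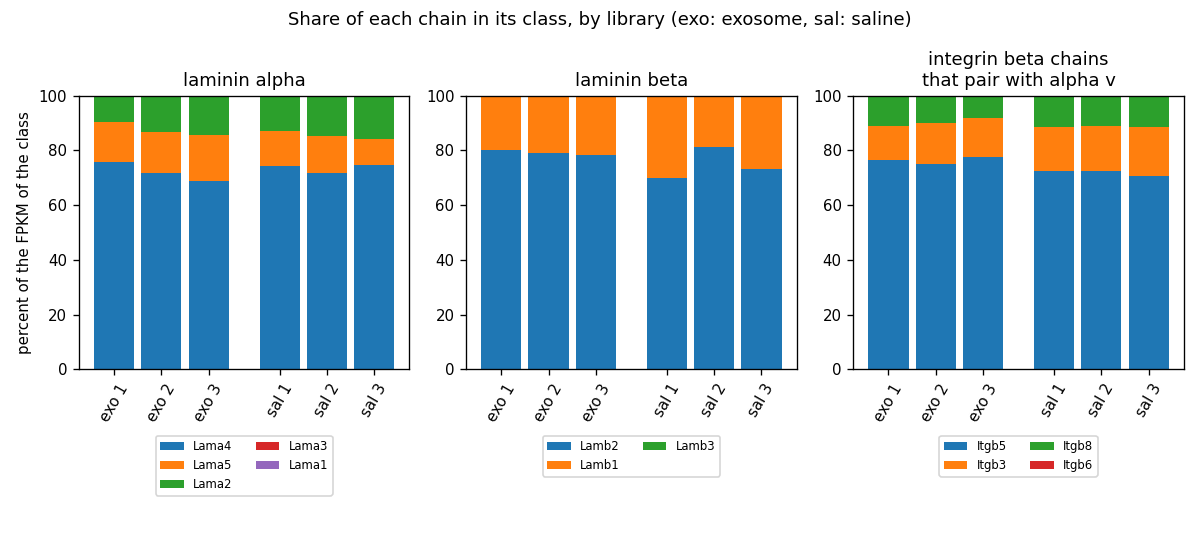
Percent of the summed FPKM of a class held by each chain in each library, for laminin alpha and beta chains and for the integrin beta chains other than Itgb1 that pair with alpha-v. Lama4, Lamb2 and Itgb5 hold the largest share of their class in every library, and the Lama5 share is larger in each exosome library than in any saline library.

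The sequence just before the annotated start is printed for the subunits with an unadjusted p under 0.05 that had an entry among RefSeq promoters of the GRCr8 build, so that the letters of the higher and the lower genes can be seen side by side. Of the 37 subunits 28 had such an entry. Each is 150 bases long and runs 5′ to 3′ toward the start of the gene, and capitals mark the GC box, GGGCGG or its reverse complement CCGCCC, the letters bound by Sp1-type factors. All lie on the minus strand, Lama5 at chr3:187695975-187696124, Itga5 at chr7:136381306-136381455, Lamc1 at chr13:68051987-68052136, Itga1 at chr2:48545284-48545433 and Itgb8 at chr6:146351246-146351395.
Lama5: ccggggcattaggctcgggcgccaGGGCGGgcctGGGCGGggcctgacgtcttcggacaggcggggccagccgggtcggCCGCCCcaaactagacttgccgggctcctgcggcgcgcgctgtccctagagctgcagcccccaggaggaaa
Itga5: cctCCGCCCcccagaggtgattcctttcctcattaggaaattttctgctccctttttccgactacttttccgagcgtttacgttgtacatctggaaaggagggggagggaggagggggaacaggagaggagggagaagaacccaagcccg
Lamc1: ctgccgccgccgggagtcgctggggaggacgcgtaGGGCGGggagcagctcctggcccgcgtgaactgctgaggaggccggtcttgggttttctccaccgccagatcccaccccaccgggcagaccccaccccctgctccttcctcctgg
Itga1: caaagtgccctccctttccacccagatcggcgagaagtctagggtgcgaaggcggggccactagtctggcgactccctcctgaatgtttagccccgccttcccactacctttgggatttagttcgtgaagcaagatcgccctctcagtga
Itgb8: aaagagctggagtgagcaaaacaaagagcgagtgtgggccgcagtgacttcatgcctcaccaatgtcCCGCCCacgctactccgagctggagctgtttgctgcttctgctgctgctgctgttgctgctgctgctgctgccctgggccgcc
The higher genes Lama5, Itga5 and Lamc1 hold 3, 1 and 1 GC boxes in these letters, and of the lower genes Itgb8 holds 1 and Itga1 holds 0. The higher gene Itgb4 and the lower gene Itgb3 are not among those printed. No share of all windows is given for 150 bases, so these counts do not set the higher genes apart from the lower ones. Over the 250 bases before the start, on both strands, 14 of the 28 subunits hold a GC box, against 30.5% of the 33469 promoter windows of the same length. The median share of G and C was 58.2% in the subunits' windows and 51.2% in all windows. The letters TGANTCA, an AP-1 site, were in 2 of 28 subunits (Itgax and Lama3) and in 6.34% of all windows. The heat shock element core GAANNTTC was in 4 of 28 (Itga1, Itga2b, Itgax and Lama4) and in 7.23% of all windows, and it was not among the letters of the Itga5 window. No match or lack of one shows that a factor binds there.

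The partners of laminin in the basement membrane showed no common direction. Of 23 such genes 20 were tested, 11 higher and 9 lower, where 39.3% of all genes tested were higher. Their median log2 difference was 0.00. At an unadjusted limma p under 0.05 there were 1 higher and 2 lower, 3 of 20 in all, a share slightly below the 16.0% of all genes tested. None passed after adjustment (smallest adjusted p = 0.268). Smoc1, a calcium-binding matrix protein, stood at 256.1, 249.9 and 221.4 FPKM with exosomes and 304.3, 302.9 and 399.8 FPKM with saline, below in all libraries. Frem1, a large basement membrane protein, had 1.63, 3.10 and 1.31 FPKM with exosomes and 3.12, 4.17 and 3.87 FPKM with saline, with the highest exosome value just under the lowest saline value. Fbln2, which binds laminin and nidogen, had 22.7, 38.3 and 34.5 FPKM with exosomes and 23.7, 19.1 and 20.2 FPKM with saline. Col4a5, a basement membrane collagen, had a log2 difference of 0.40 (limma adjusted p = 0.355) with groups that overlapped.

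Of 44 genes for integrin adaptors and adhesion kinases 40 were tested, with 30 higher and 10 lower, where 39.3% of all genes tested were higher. The median log2 difference of the list was 0.15. At an unadjusted limma p under 0.05 there were 6 of 40, all higher, a share slightly below the 16.0% of all genes tested that reached it in either direction (6.75% higher). None passed after adjustment (smallest adjusted p = 0.237). Groups stood apart for 7 (17.5%), all higher, against 21.1% of all genes tested in either direction (9.40% higher). Kank1, which links talin to microtubule capture around adhesions, stood at 431.3, 449.8 and 458.8 FPKM with exosomes and 262.2, 292.8 and 326.5 FPKM with saline, a log2 difference of 0.61 with a standard error of 0.12 (limma adjusted p = 0.237). Pxn, the scaffold paxillin, stood at 47.1, 55.7 and 55.1 FPKM with exosomes and 39.5, 34.4 and 37.8 FPKM with saline. Both were above the saline range in all exosome libraries. Lims2, also known as PINCH2, a partner of integrin-linked kinase, stood at 188.2, 160.6 and 193.9 FPKM with exosomes and 142.9, 81.8 and 90.2 FPKM with saline. Crk, an adaptor downstream of paxillin, stood at 73.7, 70.0 and 82.8 FPKM with exosomes and 55.0, 60.2 and 58.2 FPKM with saline.

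Of 30 other integrin ligands and counter-receptors 23 were tested, 13 higher and 10 lower, where 39.3% of all genes tested were higher. The median log2 difference of the list was 0.22. At an unadjusted limma p under 0.05 there were 2 higher and 3 lower (21.7% of those tested), against 16.0% of all genes tested. None passed after adjustment (smallest adjusted p = 0.237). Cyr61, a matricellular ligand of alpha-v and beta-2 integrins, stood at 180.1, 152.4 and 168.0 FPKM with exosomes and 305.9, 845.0 and 930.1 FPKM with saline, and its adjusted p in limma was 0.00187 without saline 1, the library nearest to the exosome range, and 0.0912 to 0.589 without any other single library. Fbn1, the microfibril protein with an integrin-binding site, stood at 212.1, 185.6 and 170.5 FPKM with exosomes and 256.9, 253.5 and 230.7 FPKM with saline. Emilin1, an elastic fibre protein bound by alpha-9 integrin, stood at 28.6, 38.1 and 29.0 FPKM with exosomes and 42.0, 41.1 and 56.3 FPKM with saline. These ligands lay below the saline range in all exosome libraries. Vwf, an endothelial product bound by platelet integrin, stood at 27.1, 49.0 and 25.3 FPKM with exosomes and 22.0, 17.5 and 15.7 FPKM with saline.

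The laminin receptors that are not integrins, with the enzymes that build the laminin-binding sugar of dystroglycan, held 15 genes. Of these 13 were tested, 5 higher and 8 lower, where 39.3% of all genes tested were higher. The median log2 difference of the list was -0.03. At an unadjusted limma p under 0.05 there was 1 (7.69% of those tested, against 16.0% of all genes tested), B3galnt2, a glycosyltransferase of that sugar. It stood at 51.9, 34.9 and 54.9 FPKM with exosomes and 34.6, 31.2 and 36.9 FPKM with saline (adjusted p = 0.308). Pomk, the kinase of that sugar, had a log2 difference of -0.36 (limma adjusted p = 0.385) and Pomgnt2 one of -0.34 (adjusted p = 0.394). Dag1, dystroglycan itself, stood at 67.0, 62.0 and 64.4 FPKM with exosomes and 64.3, 66.8 and 59.3 FPKM with saline. Bcam, the Lutheran receptor for the laminin alpha-5 chain, stood at 170.8, 170.6 and 121.1 FPKM with exosomes and 161.5, 145.8 and 108.5 FPKM with saline. These receptors, named after their values were seen, overlapped between the groups.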

How the data were processed

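Gene expression in rat aorta was measured by RNA-seq in 6 libraries made with a SMARTER mRNA-Seq kit, per the labels' protocols. The authors deposited 1 table of FPKM values. The submitters' processing notes name DESeq2 1.28.1 without its role. For the aligner, counter, strand setting, build and annotation, the sources used here give no name. Values of overlapping or near-identical genes are therefore uncertain. Groups came from the treatment labels, which do not say that libraries are separate rats, and p-values then cover only library-to-library spread, which may be technical.

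Whole reads (within 0.02) and lengths were recovered from the FPKM steps for 18430 genes, 100.0% of those above 0. For genes above 0 in only a few libraries some length nearly always meets this limit. The share therefore does not show that their reads and lengths are right. No pair of libraries was a duplicate (chi-square per gene 48.9 to 191.2). limma 3.58.1 in R 4.3.3 was run on log2(FPKM + 1), a scale that understates the change of low genes, with two-sided tests and a variance trend, over 11742 genes averaging 1 FPKM or more, with Benjamini-Hochberg adjustment. Of all genes tested 39.3% were higher. The fit was run on simulated data with noise drawn independently for each gene. Such data lack shifts shared by many genes of a library, so they cannot show that these p-values are right. Alternatives were a pseudocount of 0.1, other filters, rescaling, no trend, library weights, a replicate block, voom on recovered reads, and each library left out. Members, lists and tests were chosen with earlier results of these data known. The rule for named genes took subunits with unadjusted p under 0.05 or groups apart, the most abundant 6 integrin alpha, 4 integrin beta and 4 laminin genes, and the 4 genes of each list with the smallest p. Values of 2 genes that this rule or the membership took are not reported here, though counts, medians and sums include them. Promoters are from RefSeq, and Python 3.11.15 with pandas 2.3.3, numpy 2.4.6 and matplotlib 3.10.9 was used.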

Additional observations from a re-analysis of the deposited data

How the results depend on the processing

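No subunit passed an adjusted p of 0.05 in limma under any of the 15 alternatives except library weights, where Lama5 (adjusted p = 0.0424), Lamc1 (adjusted p = 0.0470) and Itgb3 (adjusted p = 0.0482) passed. With these weights Cyr61 (adjusted p = 0.0422), Lims2 (adjusted p = 0.0422), Kank1 (adjusted p = 0.0446), Frem1 (adjusted p = 0.0448) and Emilin1 (adjusted p = 0.0481) also passed. The weights ranged from 0.386 (exosome 2) to 2.81 (exosome 1), and 618 of all 11742 genes tested passed with them. They came from limma's gene-by-gene estimator, since its default estimator stopped before convergence. In the chosen fit 1 gene passed over all genes, voom on recovered reads gave 2, and leaving out 1 library gave 0 to 9. The number of subunits at an unadjusted p under 0.05 was 7, and 2 to 10 with 1 library left out. The number with groups apart was 5, and 5 to 12 with 1 library left out, where fewer libraries make a gap likelier by construction. The shares of all genes in those fits are not given, so neither range has a base to be read against. The integrin median log2 difference of 0.018 was 0.085 after rescaling to the median of ratios, 0.101 with voom, and -0.035 to 0.053 with 1 library left out. The median of all genes tested also rose, from -0.073 to -0.006 after the median of ratios and to -0.013 with voom. The share of all genes tested that were higher was then 49.0% and 48.3%, where the chosen fit had 39.3%. The laminin median of 0.182 was 0.110 to 0.286 with 1 library left out.

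Of the 16 subunits described in full 13 kept their direction throughout. Itga8 turned positive, at 0.02 after rescaling to equal sums, 0.06 after the median of ratios, 0.09 with library weights, 0.05 with voom, and turned in 3 of the 6 fits with 1 library left out, which ranged from -0.13 (without saline 3) to 0.07 (without saline 1). Over the same fits Itgav ranged from -0.01 (without saline 3) to 0.08 and Itgb1 from -0.04 (without saline 3) to 0.27. The cause was not tested. A replicate block left the number of genes passing at 1 and gave 9 subunits at an unadjusted p under 0.05. The share of all genes at that p under the block is not given, so the rise cannot be read as particular to the subunits. Deviations of same-numbered libraries correlated at 0.068, 0.096 and -0.165, so the numbers were not taken to pair the libraries. Depth limits Lama1, Lamb3, Itgad and Itgb6, which have few reads.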
